A study of Mus musculus with 15 samples.

Results

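The early growth response (Egr) genes Egr1, Egr2, Egr3 and Egr4 and the co-repressor genes Nab1 and Nab2 were examined in the mouse hippocampus after a fear memory was formed or recalled. These 6 genes were taken by symbol from the 37310 genes of the count table, and all 6 were among the 18008 genes that passed the filter on low counts and were tested. PolyA RNA was measured in 3 groups of C57BL/6J wild-type male mice aged 2 months, with 5 libraries per group. FC mice received a single foot shock of 1.5 mA for 2 s, ending 2.5 min after they were put in the chamber, and their hippocampi were collected 30 min after contextual fear conditioning. RT mice had the same training, were given a retrieval test of 5 min at 24 h, and had their hippocampi collected 30 min later. CC mice were only handled, as all animals were before the experiment, and their tissue was taken at a matched hour. The methods give 1 mouse per library, whereas the series' design text gives more animals than libraries, and this difference was not settled here. Libraries are named by group and number (3, 5, 6, 7 and 8).

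Egr proteins are transcription factors that bind GC-rich DNA through zinc fingers. Their genes are transcribed within minutes of synaptic activity, growth factors or stress, which needs no new protein synthesis, and are therefore called immediate early genes. Egr1, also known as Zif268, is widely used as a marker of neuronal activity and of memory formation and retrieval. Nab1 and Nab2 bind Egr1, Egr2 and Egr3, but not Egr4, and recruit the NuRD chromatin complex, which lowers transcription at Egr target genes. Nab2 is itself an Egr target, which closes a feedback loop.

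The 250 bases before a start site are shown for Egr2 and Egr4, the 2 genes whose FC and RT counts both lay above every CC count. Both strands were searched for the CArG box, at which serum response factor (SRF) binds, for TGACG, the core of the site of CREB, and for GCGNGGGCG, the site of Egr proteins themselves. Matches are in capitals, and CGTCA is TGACG read on the other strand. RefSeq gave a promoter for 4 of the 6 genes, and none for Egr1 and Egr3. The sequences come from its GRCm38.p6 table and each was placed on mm9 by an exact, single match. For Egr2 the table has 5 windows, and the one that ends at an annotated mm9 exon start without covering any exon is shown; it lies within the gene, whose first annotated exon begins upstream.
Egr2: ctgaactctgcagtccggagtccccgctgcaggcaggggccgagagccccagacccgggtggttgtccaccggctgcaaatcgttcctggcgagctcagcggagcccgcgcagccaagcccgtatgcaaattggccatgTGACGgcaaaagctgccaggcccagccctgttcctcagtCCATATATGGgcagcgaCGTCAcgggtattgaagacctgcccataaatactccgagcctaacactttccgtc
Egr4: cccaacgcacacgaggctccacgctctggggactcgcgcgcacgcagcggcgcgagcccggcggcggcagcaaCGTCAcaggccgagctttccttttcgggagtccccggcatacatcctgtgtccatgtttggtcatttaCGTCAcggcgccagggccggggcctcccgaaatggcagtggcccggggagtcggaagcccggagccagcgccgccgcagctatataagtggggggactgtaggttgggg
The Egr2 window is chr10:67000367-67000616 on the plus strand, and the Egr4 window is chr6:85463584-85463833 on the minus strand. The Egr2 window holds a CArG box that begins 72 bases before the start site, between TGACG matches that begin 111 and 55 bases before it. Of the other Egr2 windows, the most upstream, chr10:66997997-66998246, held none of the 3 motifs. The window chr10:67000064-67000313 held a CArG box and no TGACG, and the rest overlap the one shown. The Egr4 window holds TGACG matches 177 and 109 bases before its start, and no CArG box. Neither printed window holds GCGNGGGCG. That motif occurred 3 times in the window of Nab1, beside 1 TGACG match, and the window of Nab2 held none of the 3 motifs; both windows run into annotated exons and are not printed. Among 32851 windows of the same length from 27025 genes, 1.47% held a CArG box, 17.8% TGACG and 4.7% GCGNGGGCG. A match is a string of letters and was not tested as a binding site in these data.

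Total reads were 42051401 to 59093377 in FC, 35731428 to 61275293 in RT and 39992029 to 62555543 in CC. The libraries FC3 and RT3 stood apart from their groups: 26.5% of 13746 genes in FC3 and 3.13% in RT3 differed by more than 1 on the log2 scale from the mean of the other 4 libraries. Markers of neurons summed to 3376 CPM (counts scaled to library size) in FC3 and 3896 CPM in RT3, while the other 13 libraries had 4282 to 4603 CPM. Oligodendrocyte markers summed to 7767 CPM in FC3 and 7082 CPM in RT3, while the others had 4656 to 5616 CPM. Choroid plexus markers summed to 77.6 to 1056 CPM in FC and 50.5 to 294 CPM in RT, against 37.5 to 51.4 CPM in CC, with the highest sums in FC5 and FC8. In bulk tissue, fewer cells of a type and less RNA per cell cannot be told apart. Values are therefore given with and without FC3 and RT3 where a result rests on them.

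The 6 genes lie on 5 chromosomes of the NCBIM37 (mm9) assembly, the build of the counts. Egr1 is at chr18:35020861-35024638, Egr2 at chr10:66998223-67004936 and Egr3 at chr14:70477252-70479964, all on the plus strand. Egr4 at chr6:85461125-85463583, Nab1 at chr1:52514138-52557523 and Nab2 at chr10:127097974-127105624 are on the minus strand. Egr4 and Egr3 have the most GC-rich exons, at 68.4% and 62.5%, and Nab1 the least, at 47.5%. Exons of other genes on the opposite strand cover 1241 of the 2941 exon bases of Nab2 (Gm16229, Stat6 and Tmem194) and 8 of 3100 in Egr1 (Gm17507). The counting is not stated to use strand, so reads of Nab2 and of those neighbours cannot be told apart there.

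Levels can be compared between genes only per length, here as reads scaled to exon length in kilobases and to library depth (RPKM). In FC, Egr1 averaged 53.5 ± 7.88 RPKM, Egr3 24.1 ± 12.2, Egr4 19.6 ± 5.40, Nab2 10.6 ± 1.76, Nab1 6.19 ± 1.79 and Egr2 1.90 ± 0.444 RPKM (SD, n = 5). In RT the order was the same, with Egr1 at 51.1 ± 5.09 RPKM and Egr2 at 1.39 ± 0.306 RPKM. In CC it was also the same, with Egr1 at 36.7 ± 8.03 RPKM, Egr3 at 26.5 ± 2.04, Egr4 at 9.78 ± 1.21, Nab2 at 8.31 ± 0.886, Nab1 at 6.38 ± 0.603 and Egr2 at 0.323 ± 0.141 RPKM. Egr1 and Egr3 were thus abundant also in untrained hippocampus, and Egr2 was the rarest of the 6. Neighbours in that order had separate ranges, except Egr3 and Egr4 in FC and RT and Egr4 and Nab2 in CC. In FC, Egr3 ran from 2.27 to 30.5 RPKM and Egr4 from 14.9 to 28.8 RPKM. In CC, Egr4 had 8.35 to 11.4 RPKM and Nab2 had 7.45 to 9.33 RPKM. Nab2 is scaled to all its exon bases, of which 42.2% are shared with other genes. If the counting ignored strand, its place in the order is uncertain. In every library Egr2 remained below Nab1 and Egr1 above all other members.

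**Figure D1:**
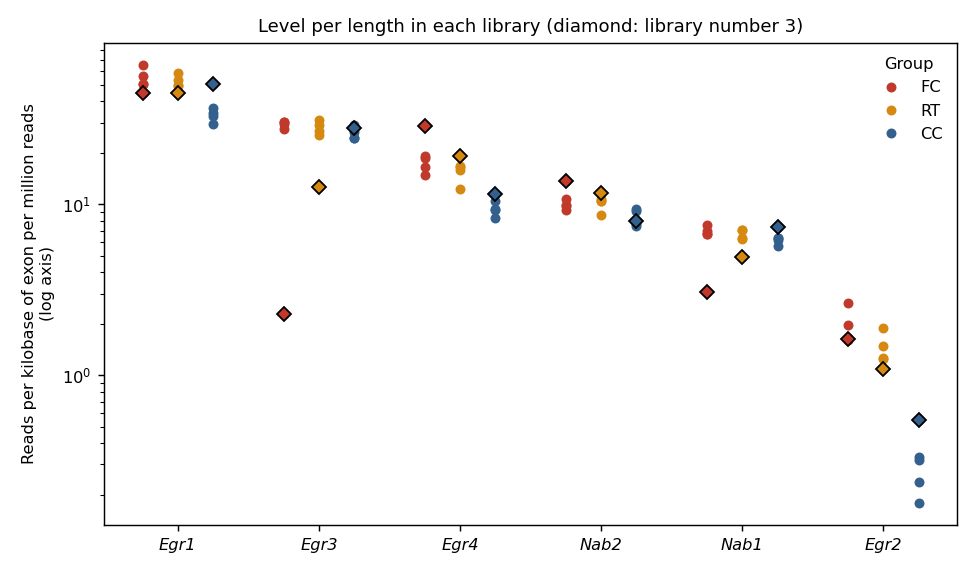
RPKM (log axis) of each gene in each library of FC, RT and CC, with diamonds for the libraries of number 3. Egr1 is the highest and Egr2 the lowest gene in all 15 libraries, and the FC3 diamond of Egr3, at 2.27 RPKM, lies far below the other FC points.

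Both kinds of experience were compared with untrained controls by edgeR, with upper-quartile (UQ) scaling and 5 RUVs factors of unwanted variation, at a false discovery rate (FDR) of 0.01 over all 18008 genes. After fear conditioning, Egr1, Egr2, Egr4 and Nab2 rose and none of the 6 genes fell. Across all genes tested, 1.32% were called higher and 0.922% lower in FC than in CC, or 2.24% in either direction. After the retrieval test the same 4 genes rose and none fell, where 0.866% of all genes were called higher and 0.144% lower in RT than in CC, or 1.01% in either direction. Egr3 and Nab1 did not pass the threshold in either comparison. Both comparisons use the same CC libraries, so the matching lists are not independent. Counts below are UQ normalized, in the order of libraries 3, 5, 6, 7 and 8.

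**Figure D2:**
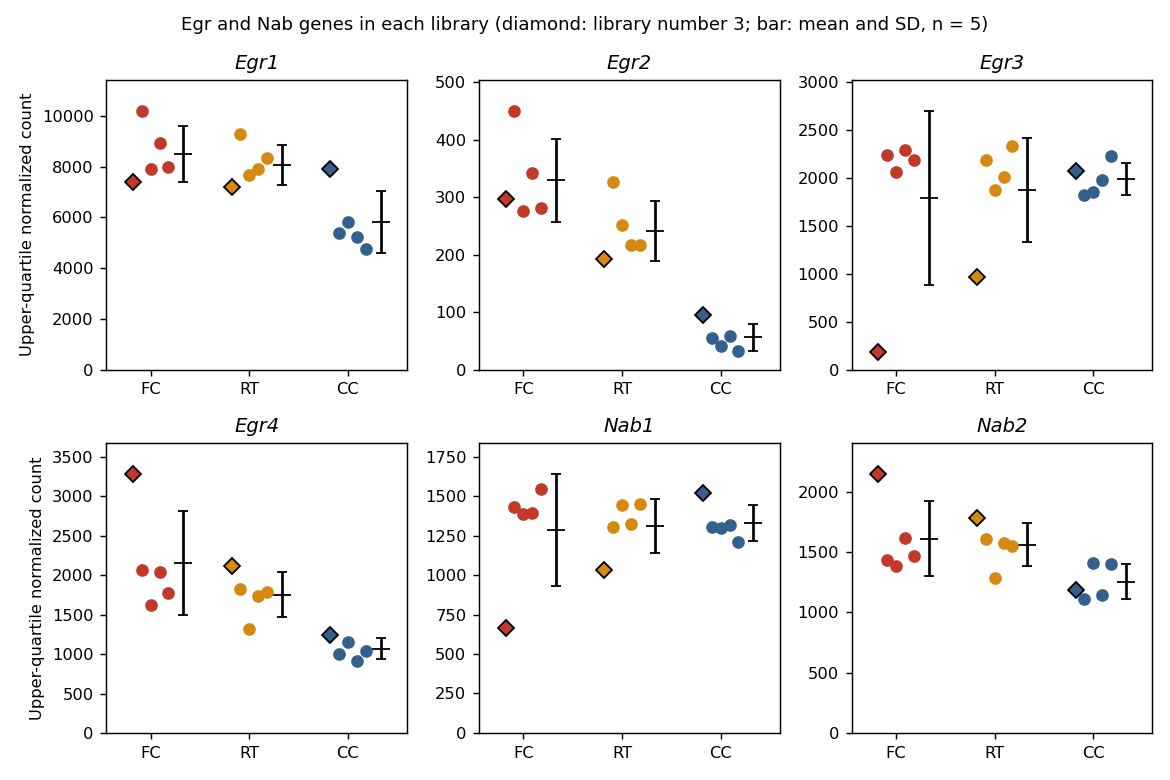
Upper-quartile normalized count of each gene in the 5 libraries of FC, RT and CC (points, diamonds for number 3), beside group means and SDs. All FC and RT points of Egr2 and Egr4 lie above all CC points, whereas Egr3 and Nab1 differ mainly in the FC3 and RT3 diamonds.

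Egr2, also called Krox20, is known for its part in hindbrain patterning and in myelination by Schwann cells, and is also induced in neurons by activity. It had 296, 450.2, 277, 342 and 281 counts in FC and 192, 327, 252, 217 and 217 in RT, against 94.6, 55.1, 41.2, 57.7 and 31.5 in CC. The highest CC library, CC3, lay below the lowest library of either other group. Such a complete separation upward was seen for 0.561% of all genes between FC and CC and for 0.9% between RT and CC. Separation downward, which no member showed, was seen for 0.4% and 0.455%. Egr2 rose by a log2 fold change of 2.66 ± 0.17 in FC (SE, edgeR, FDR 5.86e-49), which is 6.34-fold, and had the third smallest p of all genes tested. In RT it rose by 2.23 ± 0.18 (FDR 2.82e-33), or 4.68-fold. No library decided these results: with any single library left out, the change was 2.44 to 2.91 in FC and 2.04 to 2.47 in RT, and it passed the threshold each time.

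Egr4, which lacks the domain that binds the Nab proteins and is known for its role in male germ cells, had the second clearest response. It had 3283, 2065, 1619, 2036 and 1779.55 counts in FC and 2111, 1828, 1318, 1731 and 1788 in RT, against 1242, 1001, 1155, 911 and 1038 in CC. The lowest RT library, RT6, stood close above the highest CC library, CC3, and FC3 was far above the other FC libraries. The rise was 0.85 ± 0.09 in FC (log2, SE, edgeR, FDR 1.1e-16), or 1.80-fold, and 0.61 ± 0.09 in RT (FDR 4.93e-08), or 1.52-fold. With UQ scaling and no RUVs factors, the rise in RT was 0.72 and did not pass (FDR 0.0809), while that in FC was 1.01 and did (FDR 7.83e-05). Without FC3 and RT3 and still with UQ alone, it passed in both, at 0.81 in FC (FDR 8.61e-11) and 0.64 in RT (FDR 2.23e-06).

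Egr1, the most abundant member, rose less and overlapped between groups. It had 7410, 10199, 7909, 8912 and 7969 counts in FC and 7181, 9272, 7688, 7916 and 8338 in RT, against 7924, 5392, 5818, 5216 and 4757 in CC. CC3 was as high as the trained libraries, and the other 4 CC libraries lay below all of them. Egr1 rose by 0.59 ± 0.11 in FC (log2, SE, edgeR, FDR 1.4e-05), or 1.51-fold, and by 0.50 ± 0.11 in RT (FDR 0.000817), or 1.41-fold. The call in RT rested on single libraries, since it was lost without RT5 (0.43, FDR 0.0189) or without CC8 (0.42, FDR 0.0125), and the quasi-likelihood test of edgeR and DESeq2 did not make it (FDR 0.0226 and 0.127). With UQ scaling alone Egr1 passed in neither comparison (FDR 0.143 in FC and 0.83 in RT), and without FC3 and RT3 it passed in both under UQ (FDR 0.000514 and 0.00811). CC3 was also the highest CC library for Egr2, Egr4 and Nab1.

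Egr3, known for muscle spindle development and for long-term memory, was abundant and did not pass the threshold. It had 178, 2243, 2066, 2293 and 2191 counts in FC and 962, 2190.1, 1878, 2015 and 2332 in RT, against 2075, 1822, 1855, 1978 and 2224 in CC. FC3 was by far the lowest library, RT3 was next lowest, and the remaining FC and RT libraries overlapped with CC. The change was -0.10 in FC (log2, 95% interval -0.20 to 0.01, edgeR, FDR 0.372) and 0.07 in RT (-0.04 to 0.18, FDR 0.719). The sign in FC turned without FC3, at 0.023 (FDR 0.924), and not without RT3, at -0.093 (FDR 0.381). Without both libraries the change in FC was 0.13 with RUVs (FDR 0.231) and 0.14 with UQ alone (FDR 0.611), and the change in RT was 0.06 with RUVs (FDR 0.793). Leaving out RT6 brought Egr3 past the threshold in RT, at 0.19 (FDR 0.00405).

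Nab2, the activity-responsive co-repressor, rose slightly in both comparisons. It had 2144, 1434, 1386, 1612 and 1462 counts in FC and 1780.2, 1608, 1284, 1571 and 1547 in RT, against 1185, 1109.6, 1411, 1145 and 1403 in CC. Groups overlapped, with CC6 and CC8 inside the range of the other groups and FC3 and RT3 the highest of theirs. The rise was 0.26 ± 0.05 in FC (log2, SE, edgeR, FDR 0.000157), or 1.20-fold, and 0.24 ± 0.05 in RT (FDR 0.00136), or 1.18-fold. It was lost without FC7 in FC (0.23, FDR 0.0261) and without RT5 (0.19, FDR 0.0199), CC3 (0.23, FDR 0.0119) or CC5 (0.22, FDR 0.0227) in RT. It was not called with UQ alone, at 0.36 in FC (FDR 0.966) and 0.32 in RT (FDR 1), nor with UQ alone without FC3 and RT3, at 0.24 (FDR 0.254) and 0.27 (FDR 0.211). It was also not called with a single RUVs factor, at 0.27 in FC (FDR 0.0379) and 0.26 in RT (FDR 0.0453), nor in RT by the quasi-likelihood test (FDR 0.0269). Of its exon bases, 42.2% are shared with neighbours on the other strand, as given above.

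Nab1, the co-repressor that is expressed more constantly in most tissues, had 665, 1435, 1391, 1395 and 1549.6 counts in FC and 1034, 1305, 1446, 1324 and 1455 in RT, against 1524, 1306, 1300.45, 1319.6 and 1209 in CC. FC3 and RT3 were again the lowest, and the others overlapped with CC. The change was 0.04 in FC (log2, 95% interval -0.05 to 0.13, edgeR, FDR 0.743) and 0.05 in RT (-0.04 to 0.14, FDR 0.791).

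**Figure D3:**
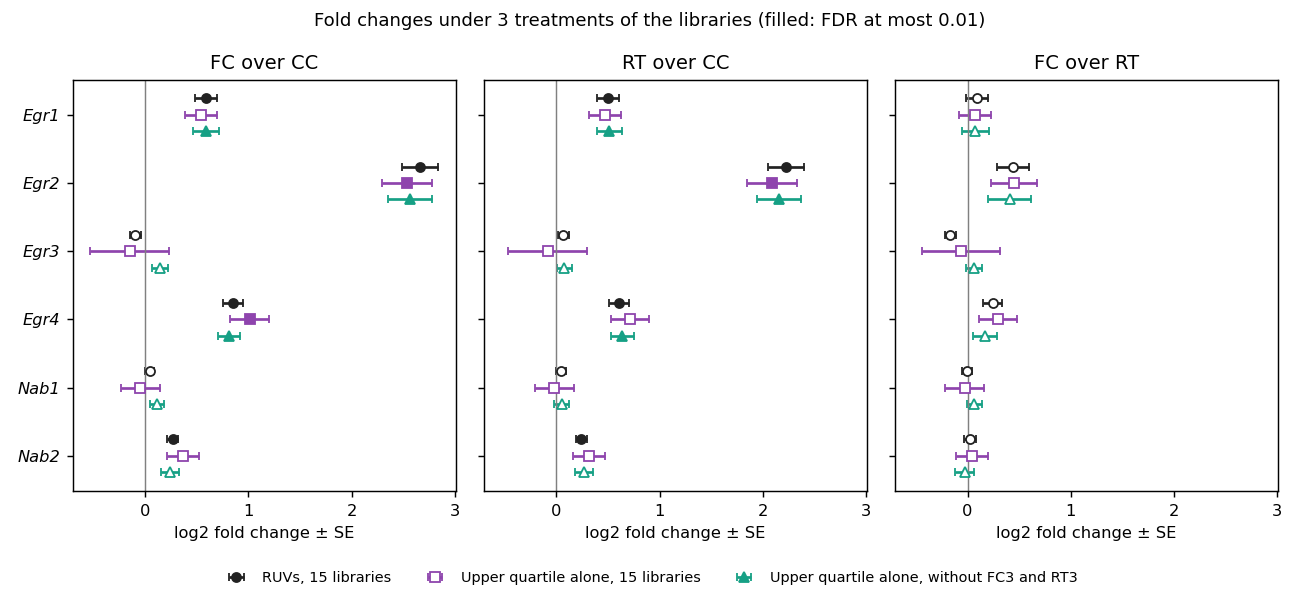
Log2 fold change with its SE for each gene, FC over CC, RT over CC and FC over RT, with RUVs factors, with UQ scaling alone, and with UQ alone without FC3 and RT3; filled symbols passed an FDR of 0.01. Egr2 is filled under all 3 treatments in FC and RT over CC, the SE of Egr3 is widest with UQ alone, and no symbol is filled for FC over RT.

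The direct comparison of FC with RT asks whether the response differs in size between the 2 procedures. The groups also differ in how recent the shock was and in prior training. The design does not separate these from learning and recall. None of the 6 genes passed the threshold in edgeR, where 0.0777% of all genes were called higher and 0.0444% lower in FC than in RT. At an unadjusted p under 0.05 there were 3 members, Egr2, Egr3 and Egr4. The quasi-likelihood test and DESeq2 also called none, with 3 and 2 members under that p. Egr2 averaged 329 ± 72.4 counts in FC and 241 ± 52.7 in RT (SD, n = 5 each), a difference of 0.44 (log2, 95% interval 0.14 to 0.74, edgeR, FDR 0.182). Egr4 averaged 2156 ± 656 counts in FC and 1755 ± 285 in RT, a difference of 0.24 (0.06 to 0.42, FDR 0.234). Both differences were smaller without FC5, at 0.25 for Egr2 (FDR 0.435) and 0.16 for Egr4 (FDR 0.548), and that of Egr2 was 0.27 without FC5 and FC8 (FDR 0.461). Choroid plexus markers, highest in those libraries, had 4 of 8 called higher in FC than in RT (Ttr, Kcnj13, Folr1 and Aqp1), and their part in these differences was not tested. Egr3 had a difference of -0.17 (-0.27 to -0.06, FDR 0.15). The FC and RT ranges of all 6 genes overlapped, where 0.0555% of all genes were separate with FC higher and 0.172% with FC lower.

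Library numbers were taken to pair FC with RT, although a pairing of numbers 5 and 7 is not shown, as given under the processing. With the number as a block beside the RUVs factors, the call changed for 2 genes. Within numbers, Egr2 was higher in all 5 FC libraries than in the RT libraries of the same number. The blocked difference of Egr2 was 0.45 ± 0.07 (log2, SE, edgeR with replicate block, FDR 5.63e-07). Egr4 was higher in FC for 4 of 5 numbers by count, with FC8 and RT8 near equal, and its blocked difference was 0.26 ± 0.06 (FDR 0.00348). The same block with UQ scaling alone called neither, at 0.44 for Egr2 and 0.27 for Egr4 (FDR 1 for both). In both fits the block also spanned the CC libraries, whose numbers were not seen to pair with the others. The RUVs factors without the block left 7 residual degrees of freedom, and the block left fewer. The likelihood ratio test takes the dispersion as known, so the SEs and FDRs with block and RUVs factors may be too small. No quasi-likelihood test was run with the block. The block with RUVs factors called 0.455% of all genes, against 0.122% without it. The remaining 4 members did not pass: Egr1 had 0.11 (FDR 0.52), Egr3 -0.17 (FDR 0.0599), Nab1 -0.0015 (FDR 0.996) and Nab2 0.02 (FDR 0.914). Egr3 passed in FC over RT without the block when RT6 was left out, at -0.27 (FDR 3.04e-05). Without FC3 and RT3 its difference was 0.07 (FDR 0.711).

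The ratios of reads between members followed the changes above. Egr1 reads per Egr2 read numbered 22.7 to 28.6 in FC and 28.4 to 38.4 in RT, against 83.7 to 151 in CC, so neither FC nor RT overlapped with CC, as for Egr2 itself. The share of Egr1 in all reads of the 4 Egr genes was 65.2% to 68.2% in FC and 65.8% to 69.0% in RT, against 59.1% to 69.9% in CC, which overlapped. Egr4 reads per Egr3 read were 0.784 to 0.921 in FC without FC3 and 0.702 to 0.859 in RT without RT3, against 0.460 to 0.623 in CC. In FC3 that ratio was 18.4 and in RT3 it was 2.19. Nab2 reads per Nab1 read were 0.944 to 1.16 in FC without FC3 and 0.888 to 1.23 in RT without RT3, against 0.778 to 1.16 in CC, while FC3 had 3.23 and RT3 had 1.72. The balance of the 2 co-repressors therefore overlapped between groups once FC3 and RT3 were set aside. These ratios are of UQ counts and are not corrected for length.

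FC3 and RT3 departed from their groups in the same genes. Across 13746 genes, which are not independent replicates, the deviation of FC3 and that of RT3 had a Pearson r of 0.929. Egr3 was among the most deviating, at -3.62 in FC3 and -1.12 in RT3 (log2), with 0.64% and 1.91% of genes lower. Nab1 deviated by -1.12 in FC3 and -0.42 in RT3, Egr4 by 0.82 and 0.35, and Nab2 by 0.54 and 0.25. Egr1 deviated by -0.23 and -0.21, with 40.5% and 30.3% of genes lower, and Egr2 by -0.16 and -0.38, with 43.4% and 19.1% lower. Over those genes the deviation of FC3 had an r of 0.405 with exon GC content and -0.460 with the log of exon length. Egr3 has GC-rich and short exons and went the opposite way to both relations. The part of these properties in the values of the 6 genes was not tested.

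**Figure D4:**
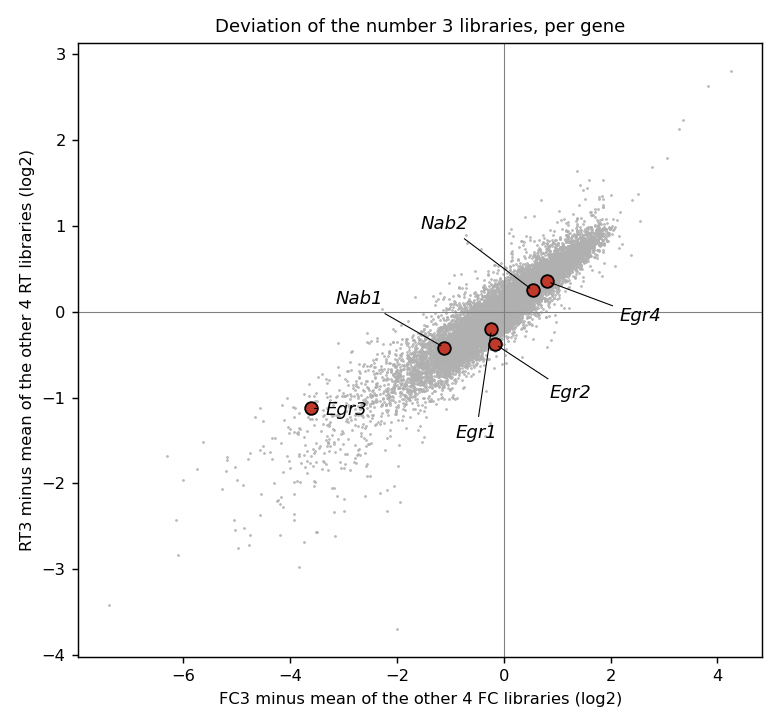
Deviation of FC3 from the other 4 FC libraries (x axis) and of RT3 from the other 4 RT libraries (y axis), log2, for 13746 genes in grey and the 6 members in red. Points follow 1 rising band, Egr3 lies in its sparse lower end and Egr1 and Egr2 lie closer to 0 in FC3 than the other 4 members.

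The genes that carry the signal to Egr promoters were counted from lists. Over all genes tested, 2.24% were called in either direction in FC over CC and 1.01% in RT over CC. At those shares, a count of 0 in a short list is not a result about that list. SRF and its partners Elk1, Elk3, Elk4, Mkl1 and Mkl2, which bind at CArG boxes, had 0 of 6 genes called in either direction in FC or RT against CC. Srf itself had a log2 change of 0.08 in FC (edgeR, FDR 0.288) and 0.10 in RT (FDR 0.161). The Ras-ERK kinases and their effector kinases, which phosphorylate Elk1 and CREB, had 0 of 13 tested called in both, with medians of -0.01 and -0.02. The CREB family and its co-activators had 0 of 8 called, with medians of 0.02 and 0.03. The medians of all genes were -0.01 in FC and -0.0012 in RT. At an unadjusted p under 0.05 (edgeR) there were 2 SRF list genes in FC and 1 in RT, 0 and 2 Ras-ERK genes, and 0 and 1 CREB list genes. Neither DESeq2 nor the quasi-likelihood test called any of them. The share of all genes under that unadjusted p was not counted. Counts at that p, here and in the lists below, therefore cannot be set against it.

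The NuRD complex, through which Nab proteins repress, had 0 of 13 subunit genes called in FC or RT against CC, where 2.24% and 1.01% of all genes were called. Its ATPase gene Chd4 changed by 0.01 in FC (log2, edgeR, FDR 0.957) and -0.05 in RT (FDR 0.652), and the smallest FDR was that of Gatad2b, 0.076 in FC. At an unadjusted p under 0.05 (edgeR) there were 1 NuRD genes in FC and 1 in RT, and neither DESeq2 nor the quasi-likelihood test called any. The related GC-box zinc fingers Sp1, Sp3 and Sp4 had 0 of 3 tested called, with Sp4 at 0.16 in FC (FDR 0.04). Wt1 of that list was below the filter, with at most 8 reads in a library. At an unadjusted p under 0.05 there were 1 of the 3 in FC and 0 in RT, and neither DESeq2 nor the quasi-likelihood test called any. With RUVs factors but without FC3 and RT3, 1 of the 3 was called higher in FC.

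Of 17 genes reported elsewhere as Egr targets, 15 were tested, 2 rose in FC and 1 in RT, and none fell, with medians of -0.02 in FC and 0.01 in RT. Over all genes, 1.32% were called higher in FC and 0.866% in RT. At an unadjusted p under 0.05 (edgeR) there were 5 in FC and 6 in RT, with values of both signs. Arc, a cytoskeleton-associated protein of active synapses, averaged 11932 ± 1681 counts in FC and 11191 ± 1002 in RT, against 4310 ± 711 in CC (SD, n = 5). Its lowest trained library, at 9647 counts in FC, was above the highest CC library, at 5081. Arc rose by 1.48 in FC (log2, edgeR, FDR 6.46e-32) and 1.37 in RT (FDR 1.4e-27), and was the only target called in RT. Arc is also on the list of other early response genes below, so it is counted in both lists. Cbl, a ubiquitin ligase, had 42.6, 549.9, 771, 655 and 539 counts in FC, against 499.6, 481, 251, 654 and 394 in CC. Its rise of 0.39 in FC (edgeR, FDR 4.57e-05) was not called with UQ alone (0.17, FDR 0.975), nor by the quasi-likelihood test (FDR 0.0165). FC3 and RT3, with 57.6 counts, were its lowest libraries. The synaptic genes Syn1, Syn2 and Gabra4 did not pass, at -0.06, -0.02 and -0.04 in FC and -0.03, -0.07 and -0.11 in RT.

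Other early response genes rose beside the Egr genes. Of 15 listed, 11 were called higher in FC and 10 in RT against CC and none lower, with medians of 0.77 and 0.70. Among all genes tested, 1.32% were called higher in FC and 0.866% in RT. Fos, a subunit of AP-1, averaged 1338 ± 212 counts in FC and 1079 ± 110 in RT, against 265 ± 53.4 in CC (SD, n = 5), and rose by 2.36 (edgeR, FDR 6.19e-79) and 2.05 (FDR 4.92e-60). The rise of Egr2 was thus of the size of that of Fos, and the other early genes with the smallest p, Btg2 and Arc, rose by 0.77 and 1.48 in FC. Npas4, Nr4a2, Fosl2 and Klf4 did not pass in FC, at 0.53, 0.03, 0.11 and 0.18.

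Across the 15 libraries, the genes whose log2 counts followed each Egr gene most closely were found among 13745 genes with a mean of at least 100 counts. For Egr1 they were Fosb, Per1, Egr2, Npas4 and Sik1, with Pearson r of 0.925 to 0.882. For Egr2 they were Fos, Fosb, Arc, Cyr61 and Dusp1, with r of 0.985 to 0.933. For Egr4 they were Arid5a, Junb, Nr4a1, Ier2 and Gadd45b, with r of 0.959 to 0.936. Egr3 was followed by another set, led by Irs2, Sec24d, Arsb and Fam155a, with r of 0.997 to 0.995. Without the 3 libraries of number 3, 2 of the 5 genes were kept for Egr1, 2 for Egr2, 3 for Egr4 and 1 for Egr3, whose closest gene was then Bcl9l at 0.922. The points share groups and library composition, and the values are a description.

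Among the 6 genes, Egr1 and Egr2 had an r of 0.917 over 15 libraries and 0.968 over the 12 without number 3. Egr1 and Egr4 had 0.702 and 0.952. Pairs with Egr3 depended on the number 3 libraries: Egr3 and Nab1 had 0.948 over 15 libraries and 0.271 over 12, and Egr3 and Egr4 had -0.583 and 0.662. Egr4 and Nab2 had 0.890 and 0.811. In these 12 libraries no pair was negative.

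Choroid plexus markers moved with the groups, as 7 of 8 listed were called higher in FC and 1 of 8 in RT against CC. The shares of all genes called higher were 1.32% and 0.866%. None of the markers was at 0 in all libraries of a group. Without FC5 and FC8, in which they were highest, Egr1, Egr2, Egr4 and Nab2 were called in both comparisons with RUVs factors. With UQ alone, Egr2 and Egr4 were called in FC over CC and Egr2 in RT over CC. The FC libraries that stayed in had marker sums of 77.6 to 138 CPM, against at most 51.4 CPM in CC. No RT library was left out, and RT8 had 294 CPM, so the run cannot show the part of these markers in RT over CC. Their part in the calls was not tested. Over the listed markers of neurons, oligodendrocytes, astrocytes, microglia and endothelium, no gene was called in either comparison. Of 5 meninges markers, Col1a1 was called lower in FC than in CC, at -0.34 (edgeR, FDR 0.00576), and none in RT.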

How the data were processed

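PolyA RNA of 15 hippocampal libraries (5 each of FC, RT and CC) was sequenced as read pairs, with 3 libraries per lane, 1 of each group. The authors aligned reads with GSNAP to mm9 and deposited raw read counts per Ensembl gene made with HTSeq 0.6.1, not normalized. All 37310 identifiers matched the mm9 annotation, from which symbols and positions were taken. The test covered genes that exceeded 10 reads in over 5 of the libraries, which is the filter used in the study's code. All libraries entered 1 negative binomial model in edgeR 4.0.16 (R 4.3.3) with UQ scaling, 5 RUVs factors from 625 negative control genes, and a likelihood ratio test at an FDR of 0.01, the study's design; RUVs was rewritten from its published algorithm and tested on simulated data. Each SE was obtained from the log2 fold change and its likelihood ratio statistic (ratio to the root). UQ counts of means and figures carry no RUVs correction; correlations use log2 of the count plus 1. P-values of fits with RUVs factors measure the spread left between libraries once those factors are removed. The factors come from the within-group deviations of these same libraries, and the main fit leaves 7 residual degrees of freedom. With UQ alone no such factors are removed. The deposited number of libraries limits precision. All 30 within-group pairs of libraries differed by more than sampling noise.

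Same-numbered libraries of FC and RT deviated together from their group means (r of 0.410 to 0.929 across 13746 genes, median 0.773). Different numbers had a median of 0.247, and numbers were taken to pair FC with RT. That median is lowered by the pairs with FC3 or RT3, at -0.843 to -0.303. FC7 had 0.708 with RT6 and 0.686 with RT5, against 0.410 with RT7. FC5 had 0.616 with RT6, against 0.589 with RT5. A pairing of numbers 5 and 7 is therefore not shown. For same numbers of FC and CC the range was -0.559 to 0.381 and for RT and CC -0.575 to 0.0999, so numbers do not pair with CC. Alternatives were other tests (quasi-likelihood, DESeq2 1.42.0), TMM scaling, filters, factors, the block and left-out libraries. The 6 genes and all lists were chosen with earlier results of these data known. Named list genes are up to 3 per list with the smallest p among those called; others were named after their values were seen. Of the lists, Hras had no match, and Psmb9 and Fasl were below the filter. Some genes the rules would name are not reported here.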

Additional observations from a re-analysis of the deposited data

Results flagged for a closer look

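In 3 of 18 groups of 5 libraries, the gap between 1 library and the nearest other, divided by the range, passed the Dixon limit of 0.71, which chance passes in about 1 of 20 groups. All 3 were FC3. Egr3 had 178 UQ counts in FC3, against 2066 to 2293 in the other FC libraries (gap over range 0.893). Nab1 had 665 counts, against 1391 to 1549.6 (0.821), and Egr4 had 3283 counts, against 1619 to 2065 (0.732).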

How the results depend on the processing

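The 4 calls in FC over CC kept their direction in every alternative run, and Egr2 was called in each. The number of members called in FC over CC was 2 with UQ alone, with the replicate block and UQ alone, and with UQ alone without FC5 and FC8. In RT over CC it was 1 with UQ alone (15 libraries, or without FC5 and FC8), and 2 with the quasi-likelihood test or the block and UQ alone. In FC over RT it was 2 with the replicate block and RUVs factors; the block with RUVs changed no other call. Leaving out 1 library at a time gave 3 to 4 in FC over CC, 2 to 5 in RT over CC and 0 to 1 in FC over RT. Over all genes, FC over CC had 403 calls, against 34 with UQ alone, 45 with the block and UQ alone, 98 with the quasi-likelihood test, 164 with DESeq2, 122 with 1 RUVs factor, 176 with 3, 107 with UQ alone without FC3 and RT3, and without FC5 and FC8 192 with RUVs and 21 with UQ alone. RT over CC had 182, against 19, 27, 66 and 85 under the first 4 of these, 85 with 1 factor, 67 with UQ alone without FC3 and RT3, and 18 with UQ alone without FC5 and FC8. FC over RT had 22, against 82 with the block and RUVs, 50 with RUVs without FC3 and RT3, 39 with all genes as controls, 4 with DESeq2, 1 with 3 factors, and 0 with 1 factor, the quasi-likelihood test or any fit with UQ alone. Without 1 library the counts were 241 (no FC5) to 624 (no CC8), 142 (no RT5) to 266 (no CC8) and 3 (no FC5) to 93 (no RT8). The cause was not tested. Alternatives without FC3 and RT3 under RUVs, or without FC5 and FC8, were chosen after seeing the data.

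Signs changed only for values that were not called, and the cause was not tested. Egr3 in FC over CC was 0.14 with UQ alone and 0.13 with RUVs, both without FC3 and RT3. In FC over RT it was 0.065 and 0.066 there. In RT over CC it was -0.086 with UQ alone, with or without FC5 and FC8, and -0.23 with the block and UQ alone. Nab1 in FC over CC was -0.049 with UQ alone, -0.099 with the block and UQ alone, and without FC5 and FC8 -0.0080 with RUVs and -0.21 with UQ alone. In RT over CC it was -0.021 with UQ alone, with or without FC5 and FC8, and -0.050 with the block and UQ alone. Nab1 in FC over RT was 0.0073 with DESeq2, 0.00695 with TMM, 0.0028 with no filter, and without FC3 and RT3 0.064 with UQ and 0.055 with RUVs. Egr1 in FC over RT was -0.00034 with UQ alone without FC5 and FC8. Nab2 in FC over RT was -0.0016 with 3 RUVs factors and -0.028 with UQ alone without FC3 and RT3. Leaving out each library gave -0.14 to 0.023 for Egr3 in FC over CC, and in FC over RT -0.019 to 0.14 for Egr1, -0.27 to 0.019 for Egr3, -0.040 to 0.045 for Nab1 and -0.026 to 0.072 for Nab2.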
